A study of Mus musculus with 46 samples.

Results

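Transcripts of the mouse mitochondrial genome were followed in the heart after loss of lamin A/C. They were taken as the genes of the deposited count table whose names start with mt-, which gave 37 of 55359 genes: 13 mRNAs, 2 ribosomal RNAs (rRNAs) and 22 tRNAs. RNA came from whole adult mouse hearts perfused with KCl and extracted with Trizol LS, in 46 libraries of 2 kinds. All mice carried the Myh6MCM transgene (Tg/0, spelled My6MCM in the labels of some F/F libraries), a tamoxifen-dependent Cre under the cardiomyocyte Myh6 promoter, and all received 100 µL of 4 mg/mL tamoxifen a day for 4 days at 6 to 8 weeks of age. Controls thus shared the Cre and the tamoxifen, and in F/F hearts cells other than cardiomyocytes kept intact floxed Lmna.

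A time course, made from poly(A)-selected RNA with the NEBNext Ultra II Directional kit, compared Lmna F/F with Lmna +/+ (wild type) hearts at 1 week (4 and 5 libraries), 11 days (2 and 3) and 2 weeks (5 and 7) after tamoxifen. A second set at 2 weeks, made with the QuantSeq 3' FWD kit, held Lmna F/+ and Lmna F/F hearts with cGas +/+ (6 and 6 libraries) and with cGas null/null (4 and 4); the F/+ cGas null/null libraries were all from males. cGas is a sensor of cytosolic DNA, which can be of mitochondrial origin. Every group but F/+ cGas null/null held both sexes, so not all libraries of such a group came from the same mouse. Title numbers differ between libraries, but whether each library came from its own mouse is not stated in the labels. P-values then cover only library-to-library spread, part of which may be technical. Levels were compared only within a kit and time. Between 1 and 2 weeks the F/F effects were compared. In the main fits, pools enter only through differences taken within each pool. Shares at 2 weeks are given over both pools and then within each.

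Mitochondrial DNA is transcribed from both strands into long precursors that span nearly the whole circle. Most mRNAs and rRNAs are flanked by tRNAs, whose excision by RNase P and ELAC2 releases them. The mRNAs encode core subunits of complexes I, III and IV and of ATP synthase, and heart muscle, which depends on oxidative phosphorylation, is rich in them. Most of these mRNAs receive a short poly(A) tail from the polymerase MTPAP, while mt-Nd6, the only mRNA of its strand, is known for lacking a regular one. A poly(A)-selected or oligo(dT)-primed library therefore samples these RNAs unequally, and rRNA and tRNA counts in it are not abundances of the mature molecules. In the annotation 28 of the 37 genes lie on one strand, and mt-Nd6 and 8 tRNAs on the other.

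Not all 37 genes could be measured. A run of 11 neighbours, from mt-Ts1 to mt-Nd4l, was nearly empty in the NEBNext libraries: no gene among them passed 6 counts in a library. It includes 6 mRNAs, whose counts summed over the 26 libraries were 18 for mt-Co2 (complex IV), 3 for mt-Atp8 and 20 for mt-Atp6 (both ATP synthase). The sums were 13 for mt-Co3 (complex IV), 11 for mt-Nd3 and 0 for mt-Nd4l (both complex I). A total of 0 allows mt-Nd4l a share of up to 6.36e-07% of the counts of these libraries. The tRNAs mt-Ts1, mt-Td, mt-Tk and mt-Tg, all within the same stretch, had 0 counts in all 46 libraries. NEBNext results on mRNAs therefore rest on 7: mt-Nd1, mt-Nd2, mt-Nd4, mt-Nd5 and mt-Nd6 of complex I, mt-Cytb of complex III and mt-Co1 of complex IV.

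Apart from mt-Atp8, the sparsely counted mRNAs have near-identical copies in the nuclear genome, on chromosome 1 of GRCm38 (GENCODE M21). mt-Co2 matched Gm28661 over 681 bases, mt-Atp6 matched Gm10925 over 678, and mt-Co3 matched Gm28437 over 783, each with 0 differences. mt-Nd4l matched Gm10222 over 294 bases with 0 differences. mt-Nd3 and the end of mt-Co1 each differed from their copy at 1 base. These pairs are shown because a read without that base cannot tell the mitochondrial gene from the copy; the capital letter marks the base that differs, T3C for mt-Nd3 and A1066T for mt-Co1, with positions counted from base 1 at the gene's 5′ end and the mitochondrial base given first.
mt-Nd3, bases 1 to 120: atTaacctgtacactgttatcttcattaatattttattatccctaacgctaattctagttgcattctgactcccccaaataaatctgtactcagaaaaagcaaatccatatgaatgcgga
Gm28438, bases 1 to 120: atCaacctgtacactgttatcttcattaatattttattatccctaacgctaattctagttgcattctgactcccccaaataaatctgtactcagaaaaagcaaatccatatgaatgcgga
mt-Co1, bases 1063 to 1182: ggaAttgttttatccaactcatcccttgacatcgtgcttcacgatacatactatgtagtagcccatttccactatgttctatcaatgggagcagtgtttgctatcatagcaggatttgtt
Gm29216, bases 10 to 129: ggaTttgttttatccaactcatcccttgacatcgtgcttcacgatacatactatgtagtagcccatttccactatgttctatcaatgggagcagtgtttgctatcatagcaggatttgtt

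A window of 50 bases, the read length of the NEBNext runs, was also found in an annotated nuclear transcript for 100% of positions in mt-Co2, 99.5% in mt-Atp6, 99.9% in mt-Co3, 98.0% in mt-Nd3 and 98.8% in mt-Nd4l. The share was 62.2% in mt-Nd4 and 51.1% in mt-Co1, 8.19% in mt-Nd2, 7.61% in mt-Nd5 and 1.04% in mt-Rnr2. It was 0% in mt-Nd1, mt-Cytb, mt-Nd6 and mt-Rnr1. mt-Atp8, with 3 NEBNext counts, also had 0%, and so did the empty tRNAs; the nuclear DNA between the annotated copies was not analysed here. The 7 copies on chromosome 1 themselves received 1903 counts over the NEBNext libraries. The sources used here do not say how the counting treated reads with several matches, and mt-Co1 and mt-Nd4 values may leave out or add an unknown number of reads from their copied stretches.

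**Figure D1:**
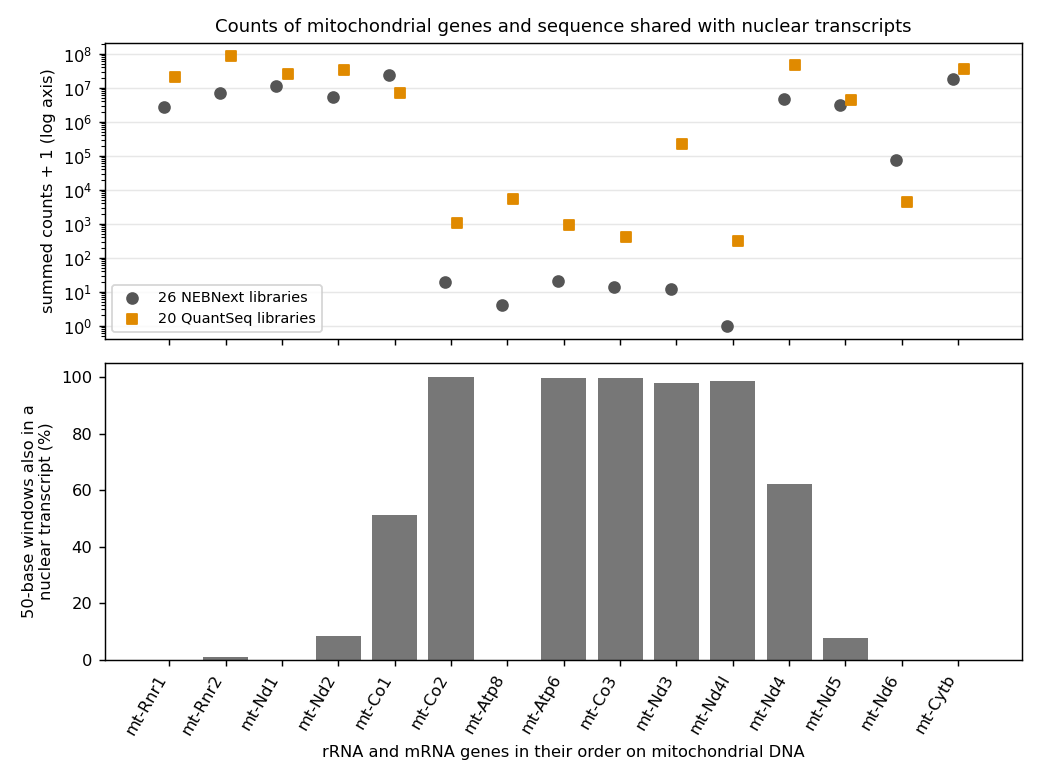
Upper panel: counts summed over the 26 NEBNext libraries (circles) and the 20 QuantSeq libraries (squares), plus 1, on a log axis, for the rRNA and mRNA genes in their order on mitochondrial DNA. Lower panel: the percentage of 50-base windows of each gene that also occur in an annotated nuclear transcript. The 6 mRNAs from mt-Co2 to mt-Nd4l have at most 20 summed NEBNext counts, and 5 of them share at least 98.0% of their windows.

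mt-Atp8 encodes a small ATP synthase subunit and is the sparsely counted mRNA without an annotated copy. Its sequence is shown whole because its end is also the start of mt-Atp6; capitals mark the 43 bases that both genes use, in which a read belongs to either.
mt-Atp8, bases 1 to 204: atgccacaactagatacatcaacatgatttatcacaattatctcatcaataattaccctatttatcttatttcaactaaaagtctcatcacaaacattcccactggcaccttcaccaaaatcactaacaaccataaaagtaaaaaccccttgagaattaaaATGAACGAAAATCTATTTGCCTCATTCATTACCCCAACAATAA

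In the QuantSeq libraries, whose reads start near the poly(A) tail, the sums over 20 libraries were 220479 for mt-Nd3, 5206 for mt-Atp8, 1085 for mt-Co2, 942 for mt-Atp6, 410 for mt-Co3 and 309 for mt-Nd4l. mt-Nd4 is among the most counted mRNAs there although 60.8% of its 100-base windows, the length of these reads, have a nuclear match. Its last 200 bases have none (0%), while those of mt-Co1 match throughout (100%). The end of mt-Nd4 is shown as the stretch that no annotated nuclear transcript shares.
mt-Nd4, bases 1259 to 1378: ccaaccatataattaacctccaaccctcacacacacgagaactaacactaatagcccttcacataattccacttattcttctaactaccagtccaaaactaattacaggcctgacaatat

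Of the 22 tRNAs, 6 had at least 10 counts in every NEBNext library and 13 in every QuantSeq library. The tRNA with the most NEBNext counts was mt-Ti (tRNA for isoleucine; 41353 over 26 libraries), and mt-Tm (methionine) had the most in QuantSeq (240404 over 20). mt-Tm and mt-Tf (phenylalanine) are shown because both were called lower in F/F hearts under some settings given further on; at 69 and 68 bases they are longer than a 50-base NEBNext read and shorter than a 100-base QuantSeq read, and counts on them can come from precursors or from neighbouring transcripts. Capitals mark nothing in them.
mt-Tm, bases 1 to 69: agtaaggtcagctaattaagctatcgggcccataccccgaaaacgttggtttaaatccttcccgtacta
mt-Tf, bases 1 to 68: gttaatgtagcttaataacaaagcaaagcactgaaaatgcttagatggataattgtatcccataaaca

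Total counts per library ran from 8477358 to 33993289, so that 95% Wilson intervals of the mRNA share in one library reached at most 0.029 percentage points to either side; they cover counting error only. Lmna was lower in every 1-week F/F library (26.99 to 36.86 normalised CPM, counts scaled by library size, against 44.95 to 67.66 in wild type). F/F and control libraries overlapped for Lmna at 11 days, at 2 weeks (42.22 to 108.3 against 104.7 to 124.8) and in QuantSeq (16.4 to 28.57 in F/F against 19.23 to 25.95 in F/+). The sources used here do not name the exons lost from the floxed allele, and counts outside them check nothing. Cgas separated its genotypes within each Lmna genotype, at 0.818 normalised CPM or less without cGas against 0.85 or more with it in F/+ hearts, and at 1.197 or less against 1.971 or more in F/F hearts. The 10 cardiomyocyte markers summed to at least 22683 normalised CPM in each library, and none of the markers in the 6 lists used was at 0 in all libraries.

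Per length, mt-Cytb, mt-Co1 and mt-Nd1 led among the 7 mRNAs and 2 rRNAs with many counts in the NEBNext libraries. The 6 sparsely counted mRNAs could not be ranked. mt-Co1 and mt-Nd4 share 51.1 and 62.2% of their 50-base windows with nuclear transcripts, so their places in this order may depend on the counting. On the deposited TPM scale (which corrects counts for gene length), 1-week wild type hearts held 86590 ± 11900 TPM of mt-Cytb, 79620 ± 6289 of mt-Co1 and 70240 ± 5724 of mt-Nd1 (SD, n = 5). mt-Cytb was above mt-Co1 in 8 of 9 libraries of 1 week and 10 of 12 of 2 weeks, and below it in 5 of 5 of 11 days. mt-Co1 was above mt-Nd1 in 25 of 26. mt-Nd2 followed at 29560 ± 4432 TPM and was below mt-Nd1 in 26 of 26 libraries. mt-Nd4 (14590 ± 2759 TPM), mt-Rnr1 (12690 ± 2186), mt-Rnr2 (12060 ± 1980) and mt-Nd5 (9314 ± 1999) came next. mt-Nd4 was above mt-Nd5 in 26 of 26 libraries and above mt-Rnr2 in 12 of 26, so the rRNAs had no fixed place among them. mt-Nd6, the mRNA of the opposite strand, was last of the mRNAs and rRNAs with many counts. It was at 294 ± 125 TPM and lay below mt-Nd5 in 26 of 26 libraries.

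At 1 week, mitochondrial mRNAs took a lower mean share of counts in F/F than in wild type hearts, but 2 of 4 F/F libraries lay among the wild type ones. The F/F libraries held 19.38, 22.12, 13.85 and 26.81% and the wild type libraries 23.7, 21.4, 24.64, 24.24 and 29.03%. Replicate 3 of F/F was the lowest and replicate 5 of wild type the highest, and the groups overlapped. The means were 20.5 ± 5.41% (SD, n = 4) and 24.6 ± 2.78% (n = 5), a difference of -4.06 percentage points. It was -1.83 without F/F replicate 3 and -6.15 without F/F replicate 4. Mean rRNA shares were 1.72 ± 0.64% (F/F) and 2.15 ± 0.40% (wild type).

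mt-Co1, the catalytic core of complex IV, showed the same arrangement. It took 6.761, 7.084, 5.4 and 8.373% in F/F against 7.658, 8.322, 8.33, 8.283 and 9.717% in wild type hearts, so that 3 of 4 F/F libraries lay under the lowest wild type library. Its fitted log2 fold change, on normalised counts with sex as a covariate, was -0.49 (SE 0.20, edgeR adjusted p = 0.44). mt-Rnr1, the small ribosomal subunit's RNA, was at 0.5901, 0.5678, 0.3869 and 0.849% in F/F against 1.069, 0.7916, 0.6775, 0.7037 and 0.9403%. Here too 3 of 4 F/F libraries were under all wild type ones, with a log2 fold change of -0.65 (SE 0.27, edgeR adjusted p = 0.44). For mt-Rnr2, the large subunit's RNA, it was -0.39 (SE 0.31, edgeR adjusted p = 0.68), with -0.17 without F/F replicate 3 and -0.71 without F/F replicate 4.

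In mt-Nd6, a complex I subunit, a single library stood apart. F/F replicate 1 held 0.03643% and the other F/F libraries 0.004289, 0.00724 and 0.007557%, against 0.008617, 0.0148, 0.008611, 0.01473 and 0.005242% in wild type hearts. In counts, that library had 4866 reads on mt-Nd6. The log2 fold change was 0.20 (SE 0.46, edgeR adjusted p = 0.90), and it ranged from -0.91 to 0.52 when single libraries were left out.

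None of the 18 mitochondrial genes tested at 1 week passed an adjusted p of 0.05 (edgeR quasi-likelihood test; DESeq2 also 0), while 6 had an unadjusted p under 0.05. Of all 15627 genes tested, 0.0256% were called, so few genes of any kind passed. Log2 fold changes were below 0 for 17 of the 18, mt-Nd6 being the exception, with a median of -0.49 against -0.005 over all genes tested. The 9 tRNAs tested were all below 0, with a median of -0.75. A pair of members, mt-Rnr1 (-0.64, adjusted p = 0.046) and mt-Ti (-0.81, adjusted p = 0.0017), were called lower by edgeR when the filter on low counts was removed, a step that adds genes with few counts to the estimate of the spread. That fit tested 31 members and called 109 of 31988 genes.

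**Figure D2:**
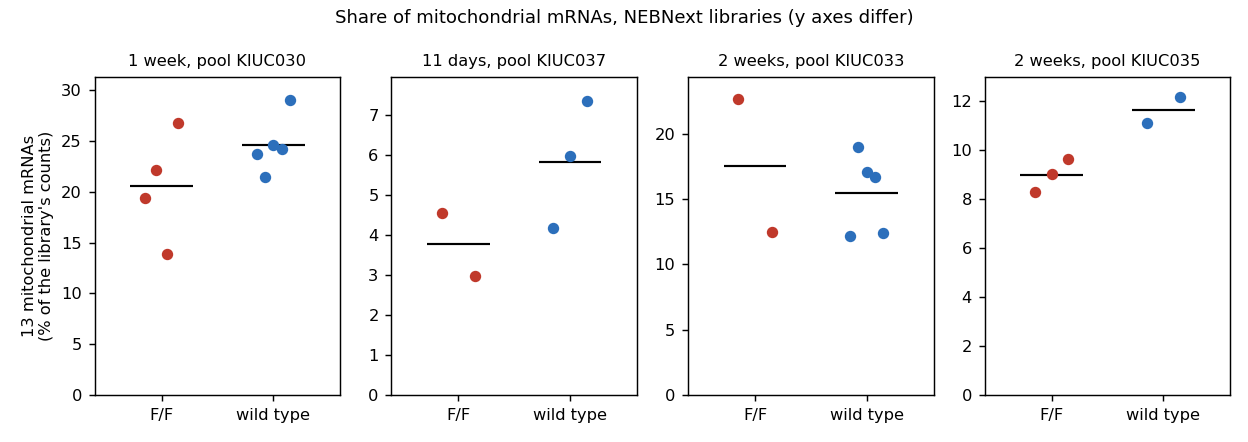
Share of counts of the 13 mitochondrial mRNAs in each NEBNext library (y axis, percent, with axes that differ between panels) for F/F and wild type hearts. The panels are 1 week, 11 days, 2 weeks in pool KIUC033 and 2 weeks in pool KIUC035. Each point is a library and each line a group mean. F/F and wild type libraries overlap at 1 week, at 11 days and in KIUC033. There 1 F/F library, at 22.7%, lies above all others of 2 weeks. In KIUC035 all F/F libraries lie below the wild type ones.

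At 11 days the F/F mean was again lower, on only 2 F/F libraries. They held 4.564 and 2.975% mitochondrial mRNA, and wild type libraries 4.177, 5.973 and 7.358%. One F/F library lay inside the wild type range and the other under it (means 3.77 ± 1.12%, n = 2, and 5.84 ± 1.59%, n = 3; difference -2.07 percentage points). It was -1.27 without F/F replicate 2 and -1.31 without wild type replicate 3. mt-Co1 followed this order, at 2.388 and 1.341% in F/F against 2.205, 2.967 and 3.845%, with a log2 fold change of -0.68 (SE 0.27, edgeR adjusted p = 0.53).

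Which genes separated the 11-day groups depended on the scale. As shares of counts, the rRNAs alone did so among the 9 mRNAs and rRNAs with many counts. mt-Rnr1 took 0.4473 and 0.388% in F/F and 0.5346, 0.6056 and 0.981% in wild type hearts. mt-Rnr2 took 0.6732 and 0.6737% in F/F and 0.7377, 0.7165 and 1.366% in wild type hearts. On normalised CPM, the scale of the fit, F/F libraries were below every wild type library for 5 of the 9: mt-Rnr1, mt-Co1, mt-Nd1, mt-Cytb and mt-Nd4, named for these values. mt-Rnr2 overlapped there, at 7136 to 7800 in F/F and from 6936 in wild type hearts. How many of all genes separate these few libraries is not given for either scale, so the counts have no background. The fitted log2 fold changes of mt-Rnr1 and mt-Rnr2, -0.75 (SE 0.36, edgeR adjusted p = 0.60) and -0.48 (SE 0.43, edgeR adjusted p = 0.80), did not pass. The value for mt-Nd6 was -0.21 (SE 0.62, edgeR adjusted p = 0.95).

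edgeR and DESeq2 called 0 of the 18 members at 11 days, and 3 had an unadjusted edgeR p under 0.05. The background was 0.0% called of 15627 genes. Of the 18 values 17 were below 0, with a median of -0.60 against -0.07 over all genes. The exception was the tryptophan tRNA mt-Tw at 0.88, which is named for its value. Atrial markers summed to 475 and 491 normalised CPM in F/F and to 775, 2213 and 3075 in wild type libraries. For the other marker lists the F/F and wild type sums overlapped. The part of cell makeup or of the tissue sampled in the 11-day values was not tested.

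At 2 weeks the F/F libraries spread widely. The share of mitochondrial mRNA was 22.66, 12.48, 8.3, 8.999 and 9.624% in F/F replicates 1 to 5, and the 7 wild type libraries ran from 11.1% over a median of 12.43% to 18.98%. F/F replicate 1 was above every wild type library, replicate 2 lay among them, and replicates 3, 4 and 5 were below them all. The libraries came from sequencing pools KIUC033 (2 F/F and 5 wild type) and KIUC035 (3 and 2). This order and the means over both pools therefore mix pool with genotype. The means of 12.4 ± 5.95% (n = 5) and 14.4 ± 3.12% (n = 7) differed by -1.96 percentage points, less than either SD. It was -4.52 without F/F replicate 1, and between -0.93 and -1.26 without F/F replicate 3, 4 or 5 or wild type replicate 2.

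Within-pool differences had opposite signs. Within pool KIUC033, F/F replicates 1 and 2 averaged 17.57% and 5 wild type libraries 15.47%, a difference of 2.1 percentage points. Within pool KIUC035, F/F replicates 3 to 5 averaged 8.97 ± 0.66% and 2 wild type libraries 11.63 ± 0.75%, a difference of -2.66 points, with all F/F below both. In KIUC035, F/F libraries lay under the wild type libraries for 7 of 9 mRNAs and rRNAs, and in KIUC033 for 0 of 9. The same count over all genes is not given here, so these counts have no background and describe the libraries only.

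Gene by gene, mt-Co1 took 6.672, 4.034, 2.831, 3.095 and 2.974% in F/F replicates 1 to 5 against 4.082, 4.929 and 5.993% (lowest, median and highest of 7) in wild type hearts. F/F replicate 1 was the highest library of all and the other 4 were under every wild type library. This order, too, runs over both pools. With pool and sex in the fit, the log2 fold change of mt-Co1 was -0.39 (SE 0.18, edgeR adjusted p = 0.11). mt-Rnr1 took 0.9675, 0.4515, 0.2672, 0.2594 and 0.3341% in F/F against 0.3877, 0.539 and 0.6106% in wild type hearts, again with replicate 1 on top. Its log2 fold change was -0.22 (SE 0.23, edgeR adjusted p = 0.51). For mt-Rnr2 it was -0.24 (SE 0.27, edgeR adjusted p = 0.55) and for mt-Nd6 -0.21 (SE 0.40, edgeR adjusted p = 0.74).

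At 2 weeks 29.2% of the 15627 genes tested were called, 12.96% as lower, and 0 of the 18 mitochondrial genes. DESeq2 also called 0, and 2 of the 18 had an unadjusted edgeR p under 0.05. The log2 fold changes were below 0 for 18 of 18, with a median of -0.30 against 0.04 over all genes. The sign depends on the scaling: without TMM factors (the trimmed-mean correction of library size) 14 of 18 were below 0 with a median of -0.09, and with deposited TPM 13 of 18 with a median of -0.05. These scalings moved the median of all genes by 0.25 and 0.20. Without the filter on low counts edgeR called 2 lower, mt-Tm (-0.53, adjusted p = 0.0088) and mt-Tw (-0.45, adjusted p = 0.047). That fit tested 31 members and called 4452 of 31988 genes in either direction.

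Leaving out F/F replicate 1 changed the calls. Then 8 of 18 mitochondrial genes were lower in F/F hearts by edgeR, where 15.2% of all genes tested were called lower. Both rRNAs were among them, mt-Rnr1 at -0.72 (adjusted p = 0.015) and mt-Rnr2 at -0.79 (adjusted p = 0.030). Of the mRNAs, mt-Co1 was at -0.68 (adjusted p = 0.0057), mt-Nd1 of complex I at -0.65 (adjusted p = 0.019) and mt-Nd6 at -1.19 (adjusted p = 0.024). The tRNAs were mt-Ti at -1.02 (adjusted p = 0.0051), mt-Tm at -0.98 (adjusted p = 0.046) and mt-Tw at -0.80 (adjusted p = 0.0058). In pool KIUC035 alone edgeR called 4 lower, mt-Nd1 (-0.87), mt-Ti (-1.19), mt-Tw (-0.98) and mt-Co1 (-0.82), with 10.2% of all genes called lower; in KIUC033 alone 0 were called, the median was 0.22 and 4 of 18 were below 0.

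**Figure D3:**
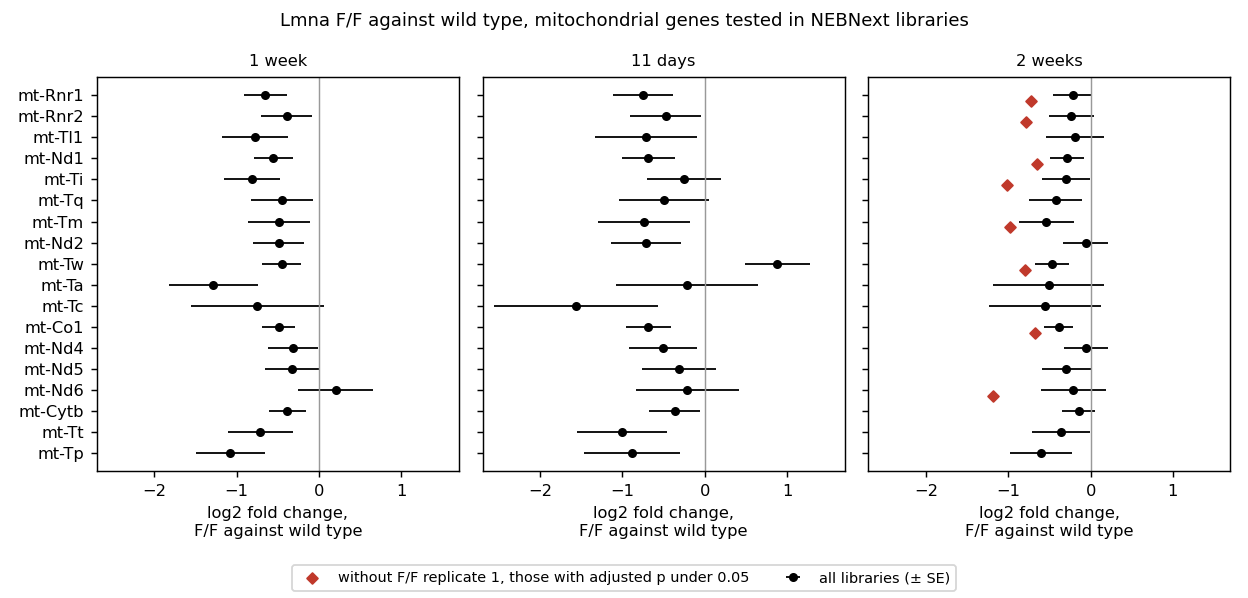
Log2 fold change of F/F against wild type hearts (x axis) for the 18 mitochondrial genes tested in the NEBNext libraries, in their order on mitochondrial DNA, at 1 week, 11 days and 2 weeks. Black points with bars are the fit on all libraries ± SE; red diamonds in the 2-week panel are values without F/F replicate 1 for the 8 genes with an adjusted p under 0.05 then. Most points lie left of 0, and the 8 diamonds lie further left than the points of the same genes.

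F/F replicate 1 also stood apart in cell type markers. Summed over 10 macrophage markers it held 529 normalised CPM, where the other F/F libraries ran from 1138 to 2241 and wild type hearts from 312 to 439. Over 8 fibroblast markers it held 1701, with 3562 to 6300 in the rest of F/F and a wild type range of 1082 to 1576. Over 10 cardiomyocyte markers it held 75065, with 43060 to 64928 in the rest of F/F and a wild type range of 89858 to 111631. For 5 atrial markers it held 426, with 1805 to 3222 in the rest of F/F and 320 to 1290 in wild type. For 7 endothelial markers it held 2201, with 846 to 1244 and 1072 to 2188 in the same order. For 5 erythrocyte markers it held 407, with 258 to 300 and 178 to 690. Its Lmna was the lowest of the F/F libraries, at 42.22 against 82.73 to 108.3 normalised CPM. With all libraries, edgeR called 10 of 10 macrophage and 7 of 8 fibroblast markers higher and 8 of 10 cardiomyocyte markers lower at 2 weeks, 1 of 7 endothelial markers lower, 1 of 5 atrial markers higher and 0 of 5 erythrocyte markers. In these bulk samples fewer cells of a type and less RNA per cell cannot be told apart, and the part of cell makeup in the mitochondrial values was not tested.

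The F/F effect at 2 weeks minus that at 1 week, which shares the spread estimate but no library between its arms, passed for 0 of 18 mitochondrial genes, with 12.4% of all genes called. The difference was 0.10 (SE 0.27, edgeR adjusted p = 0.84) for mt-Co1, 0.43 (SE 0.35, edgeR adjusted p = 0.44) for mt-Rnr1, 0.15 (SE 0.41, edgeR adjusted p = 0.84) for mt-Rnr2 and -0.41 (SE 0.60, edgeR adjusted p = 0.69) for mt-Nd6. Its median was 0.25 over the 18 genes and 0.04 over all genes, 0 members had an unadjusted p under 0.05, and DESeq2 called 0.

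Nuclear genes that make, process and maintain mitochondrial RNA and DNA did pass at 2 weeks. Of 52 tested from 5 lists, 23 were lower and 0 higher in F/F hearts by edgeR, against 12.96% of all genes called lower; they moved beside the cell type markers above, whose part in these values was not tested. Of the transcription genes 4 of 8 were lower: Mterf2 (-0.82, SE 0.25, adjusted p = 0.016), the elongation factor Tefm (-0.68, SE 0.14, adjusted p = 0.00074), the RNA polymerase Polrmt (-0.49, SE 0.11, adjusted p = 0.0020) and Mterf4 (-0.49, SE 0.15, adjusted p = 0.013). Tfam, which packages mitochondrial DNA and opens its promoters, was at -0.34 (edgeR adjusted p = 0.11) and did not pass.

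Of the genes for RNA processing, polyadenylation and stability 7 of 17 were lower by edgeR. Fastk, needed for mt-Nd6 RNA, was at -0.84 (SE 0.13, adjusted p = 4.32e-05), Ptcd2 at -0.70 (SE 0.14, adjusted p = 0.00067), Ptcd1 at -0.60 (SE 0.14, adjusted p = 0.0023) and Lrpprc, which stabilises mitochondrial mRNAs, at -0.58 (SE 0.19, adjusted p = 0.022). Of the 3 genes of RNA decay, the helicase gene Supv3l1 was lower at -0.50 (SE 0.15, adjusted p = 0.014). Of the genes for rRNA and tRNA modification 7 of 13 were lower, led by the tRNA methyltransferase Trmt5 at -0.96 (SE 0.18, adjusted p = 0.00032) and the rRNA methyltransferase Tfb1m at -0.80 (SE 0.14, adjusted p = 0.000156). The rRNA methyltransferases Mrm2 (-0.70, adjusted p = 0.00045) and Mrm3 (-0.67, adjusted p = 0.0028) were lower too. Of the genes for mitochondrial DNA replication and maintenance 4 of 11 were lower: Dguok (-0.61, adjusted p = 0.0025), a kinase supplying deoxynucleotides, the carrier Slc25a33 (-0.57, adjusted p = 0.013), the helicase Twnk (-0.52, adjusted p = 0.0080) and the nuclease Mgme1 (-0.48, adjusted p = 0.015).

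These counts also depended on scaling and library. Without TMM factors 9 were lower and 3 higher, and with deposited TPM 8 were lower and 4 higher. Without F/F replicate 1 the count of lower genes was 27, and over all left-out libraries it ran from 15 (without F/F replicate 2) to 27. Pool KIUC035 alone gave 17 and KIUC033 alone 3. The effect at 2 weeks was lower than at 1 week for 8 of the 52 by edgeR, against 5.88% of all genes: they include Fastk (-1.02, adjusted p = 0.0021), Polrmt (-0.92, adjusted p = 0.0021), Ptcd1 (-0.80, adjusted p = 0.014), Mrm2 (-0.79, adjusted p = 0.011) and Twnk (-0.71, adjusted p = 0.032). At 1 week, at 11 days and in the 5 QuantSeq comparisons edgeR called 0 of these genes (50 tested in QuantSeq).

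In QuantSeq, mitochondrial genes took 45.9 to 58.9% of counts, split between mRNAs and rRNAs. With cGas +/+, mRNAs took 17.79, 28.61 and 35.08% (lowest, median and highest of 6) in F/+ hearts and 28.17, 32.81 and 40.93% in F/F hearts. The groups overlapped, at means of 27.7 ± 5.89% and 33.7 ± 4.90% (SD, n = 6 each), a difference of 5.94 percentage points, or 3.95 without F/+ replicate 2. The rRNA means had the opposite order, with 19.33, 23.23 and 27.98% in F/+ (mean 23.0 ± 3.30%) and 10.57, 19.24 and 22% in F/F hearts (mean 18.04 ± 4.18%). The library with the highest rRNA share, F/+ replicate 2, had the lowest mRNA share of these 12, and F/F replicate 6, with the lowest rRNA share, had the highest. Because both are shares of one total, a higher share of one leaves less for the other.

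**Figure D4:**
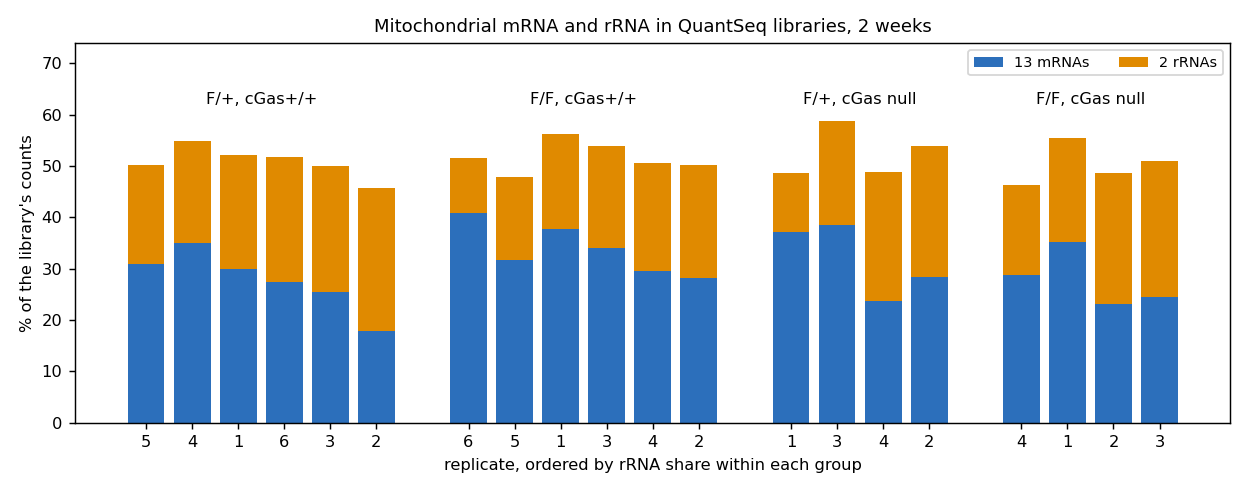
Share of counts (y axis, percent) of the 13 mitochondrial mRNAs (blue) and the 2 rRNAs (orange, stacked) in each of the 20 QuantSeq libraries, grouped by genotype and ordered by rRNA share within a group (x axis, replicate number). Stacked totals stay between 45.77 and 58.81%, while the rRNA part ranges from 10.57 to 27.98%.

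The mRNA counts of F/+ cGas +/+ hearts were 26.9 ± 4.15% mt-Nd4, 24.7 ± 2.24% mt-Cytb, 20.9 ± 2.29% mt-Nd2, 17.8 ± 1.34% mt-Nd1, 6.30 ± 2.94% mt-Co1 and 3.17 ± 0.30% mt-Nd5 (SD, n = 6). These are shares of reads near transcript ends and not levels per length. mt-Nd4 took 3.626, 8.08 and 10.8% of all counts in F/+ and 7.997, 11.0 and 14.9% in F/F hearts with cGas. mt-Cytb took 4.774, 6.52 and 8.53% in F/+ and 7.28, 7.78 and 10.61% in F/F hearts. For both genes the ranges overlapped, and F/+ replicate 2 was the lowest library. mt-Rnr2 took 15.61, 18.6 and 22.53% in F/+ and 8.738, 15.6 and 17.99% in F/F hearts, with 3 of 6 F/F libraries under all F/+ libraries.

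On TMM-scaled counts the mRNAs showed no common direction. In F/F against F/+ hearts with cGas, edgeR and DESeq2 called 0 of 29 mitochondrial genes, with 4.63% of 14812 genes called by edgeR, and 5 of the 29 had an unadjusted edgeR p under 0.05. The median log2 fold change was 0.03 for the 13 mRNAs, 5 of them below 0. It was -0.58 for the 14 tRNAs, 13 of them below 0, and -0.39 over all 29, against -0.01 over all genes. mt-Rnr1 was at -0.50 (SE 0.27, edgeR adjusted p = 0.33), mt-Rnr2 at -0.46 (SE 0.25, edgeR adjusted p = 0.33), mt-Co1 at -0.44 (SE 0.22, edgeR adjusted p = 0.29) and mt-Nd6 at -0.39 (SE 0.31, edgeR adjusted p = 0.53).

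The tRNAs were the members closest to a call. Without the filter on low counts edgeR called 8 of them lower: mt-Tf (-1.23, adjusted p = 2.55e-06), mt-Tv, mt-Tl1, mt-Tm, mt-Tc, mt-Ts2, mt-Tt and mt-Tp. That fit tested 33 members and called 1183 of 29893 genes in either direction. As at 1 week, removing the filter adds genes with few counts to its estimate of the spread. mt-Tf, whose sequence stands above, had 32 to 173 counts in F/+ and 27 to 59 in F/F libraries, so the groups overlapped. Macrophage markers were higher for 9 of 10 and fibroblast markers for 2 of 8 by edgeR in the same comparison, and 0 of 10 cardiomyocyte markers passed. Their part in the mitochondrial values was not tested.

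With cGas null/null the mean mRNA share was lower in F/F hearts. These shares carry no sex term. All F/+ libraries were male, while the F/F males held 35.2 and 28.77% and the F/F females 23.08 and 24.44%. The part of sex in the lower mean was not tested. The mRNA share was 37.13, 28.42, 38.43 and 23.79% in F/+ and 35.2, 23.08, 24.44 and 28.77% in F/F hearts, overlapping throughout (31.9 ± 7.02% and 27.9 ± 5.46%, n = 4 each; difference -4.07 percentage points). The difference ran from -1.91 without F/+ replicate 3 to -6.79 without F/+ replicate 4; it was -2.34 without F/+ replicate 1, -2.47 without F/F replicate 2 and -6.51 without F/F replicate 1. rRNAs took 11.41, 25.56, 20.38 and 24.97% in F/+ and 20.15, 25.55, 26.48 and 17.43% in F/F hearts. edgeR and DESeq2 called 0 of 29 members, against 0.527% of all genes by edgeR, and 0 had an unadjusted p under 0.05. The log2 fold changes were 0.08 for mt-Rnr1 (SE 0.36, edgeR adjusted p = 0.97), -0.04 for mt-Rnr2 (SE 0.33, edgeR adjusted p = 0.99), -0.23 for mt-Co1 (SE 0.30, edgeR adjusted p = 0.88) and -0.23 for mt-Nd6 (SE 0.42, edgeR adjusted p = 0.92). Of the 14 tRNAs 3 were below 0, with a median of 0.23, and of the 13 mRNAs 10, with a median of -0.22. Over all 29 the median was 0.08, against -0.02 over all genes. It turned to -0.17 with only the groups compared and to -0.06 without the sex term, in a comparison whose F/+ libraries were all male, and ran from -0.12 to 0.24 when single libraries were left out. Macrophage markers summed to 226 to 503 normalised CPM in F/F and 183 to 236 in F/+ hearts, and their part in these values was not tested.

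The difference between the F/F effects without and with cGas was tested directly and was called for 0 of 29 members by edgeR and DESeq2, with 0.0% of all genes called. It was 0.58 (SE 0.47) for mt-Rnr1, 0.42 (SE 0.42) for mt-Rnr2, 0.22 (SE 0.38) for mt-Co1 and 0.17 (SE 0.54) for mt-Nd6, each with an edgeR adjusted p of 1.0, and 1 member had an unadjusted p under 0.05. Of the 13 mRNAs 9 were below 0, with a median of -0.09, and mt-Co1 was the highest of them. The 14 tRNAs had a median difference of 0.90, with 1 below 0. Without the filter on low counts mt-Tv (tRNA for valine) was called at 1.11 (edgeR adjusted p = 0.034), in a fit that called 23 of 29893 genes.

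Loss of cGas within a Lmna genotype called 0 of 29 members in F/+ and 0 of 29 in F/F hearts by edgeR and DESeq2. By edgeR 0.0% of all genes were called in each. The QuantSeq set held no Lmna +/+ hearts, so cGas loss was always seen beside a floxed Lmna allele. Shares carry no sex term, and the F/+ libraries were 4 males without cGas but 2 males and 4 females with it. In F/+ hearts 0 members had an unadjusted p under 0.05 and the mean mRNA share was 4.21 percentage points higher without cGas. That difference ran from 2.05 to 6.93 without cGas null/null replicate 3 and replicate 4, and was 2.48 without cGas null/null replicate 1 and 2.22 without cGas +/+ replicate 2. There mt-Rnr1 was at -0.17 (SE 0.34), mt-Rnr2 at -0.15 (SE 0.30), mt-Co1 at -0.13 (SE 0.28) and mt-Nd6 at -0.43 (SE 0.38). In F/F hearts 1 member had an unadjusted p under 0.05 and the share differed by -5.80 points. There mt-Rnr1 was at 0.41 (SE 0.30), mt-Rnr2 at 0.27 (SE 0.27), mt-Co1 at 0.08 (SE 0.25) and mt-Nd6 at -0.26 (SE 0.35). Of the 13 mRNAs 11 were below 0 (median -0.26), mt-Co1 being the highest, and of the 14 tRNAs 1 (median 0.34). These comparisons reuse the same 4 groups of libraries.

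mt-Nd3, the only sparsely counted mRNA with many QuantSeq reads, was low in 2 libraries without cGas. F/+ cGas null/null replicate 1 had 1100 counts and F/F cGas null/null replicate 2 had 766, while the other 18 libraries had 5644 to 16300. Its nuclear copy Gm28438, which differs by 1 base over 345, was lowest in the same libraries, at 31 and 19 counts against 78 to 193. mt-Tm had 2758 and 5338 counts in them and from 5793 in the others, so that the second lay close to the rest. Each comes from a different Lmna genotype, and the other libraries of their groups did not share the low value.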

How the data were processed

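The authors deposited 2 tables for the 46 libraries: raw read counts per gene, and normalised values that are TPM in the NEBNext columns and CPM in the QuantSeq columns, each CPM equal to the count scaled by its library's total. Per the submitters' processing notes the aligner was STAR 2.7.9 and the build mm39; the sources used here do not give the tool, annotation or strand setting by which reads were assigned to genes. Titles matched each column to its sample, leaving 0 columns over. Groups come from the labels.

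The deposited counts were tested with edgeR 4.0.16 (quasi-likelihood, TMM, filterByExpr with a minimum of 10 counts and of 15 in total) in R 4.3.3, one fit per kit, with sex and, at 2 weeks, sequencing pool as covariates. P-values were adjusted by Benjamini-Hochberg over all genes tested, with a threshold of 0.05. Normalised CPM are counts over TMM-scaled library sizes. The deposited TPM were tested with limma 3.58.1 on log2(TPM + 1), for genes with a mean of at least 1. DESeq2 1.42.0, other scalings, filters and covariates, and leaving out each library were alternatives; fits of each 2-week pool alone were added after the data were seen. The test was checked on simulated data with changes put into randomly chosen genes. Changes of 1 log2 unit were recovered for 54 of 96 genes at 1 week, 34 of 97 at 11 days and 63 of 95 at 2 weeks. In QuantSeq, F/F against F/+, they were recovered for 69 of 100 with cGas and 54 of 100 without. A member that was not called may therefore still have changed. Names, gene order, strands and sequences came from GENCODE M21 (GRCm38), which named 37 of 37 members; that build is not the authors', so no coordinates are given.

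Members and gene lists were chosen with earlier results of these data known. Fold changes are given for members that passed and, in every comparison, for mt-Co1, mt-Nd6, mt-Rnr1 and mt-Rnr2, and for up to 4 genes per list that passed with the largest change.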

Additional observations from a re-analysis of the deposited data

Results flagged for a closer look

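Of 96 groups of 4 to 7 libraries examined, 9 had an outlying library. Its distance from its nearest neighbour was a larger part of the group's range than Dixon's 95% limit. Chance alone gives about 1 in 20 for independent groups. These groups reuse the same libraries and hold sums beside their own members, so the 9 cannot be set against that rate. Of the 9, 5 are the same library, F/F replicate 1 of 2 weeks, in a group that mixes pools KIUC033 and KIUC035. It held 0.03408% of its counts in the 22 tRNAs, 2.376% in mt-Nd2 (other F/F libraries 0.6266 to 1.026%) and 1.238% in mt-Nd5 (0.3434 to 0.5344%). It also held 6.048% in mt-Cytb (2.704 to 3.508%) and 0.9675% in mt-Rnr1 (0.2594 to 0.4515%). At 1 week F/F replicate 1 held 0.03643% in mt-Nd6, and the rest of F/F 0.004289 to 0.007557%. In QuantSeq, F/F cGas +/+ replicate 4 held 0.001515% in mt-Nd6 and replicate 6 held 10.61% in mt-Cytb, and F/+ cGas null/null replicate 3 held 1.084% in mt-Nd5. The outlying library was the highest of its group in each of the 9.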

How the results depend on the processing

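No paired analysis was possible because the sample numbers in the titles are not shared between groups. The count of members called stayed at 0 in all 9 comparisons with DESeq2, without TMM factors, with scaling from nuclear genes and without the sex term, and in the 2 comparisons with 2-week NEBNext libraries also without the pool term. Without the filter on low counts it was 2 at 1 week, 2 at 2 weeks, 8 in F/F against F/+ with cGas and 1 for the difference of the F/F effects. With deposited TPM it was 1 at 1 week (pseudocounts 1 and 0.1), 1 at 2 weeks (no filter: mt-Co3 at 0.15) and 1 for 2 weeks minus 1 week (mt-Ts2). Leaving out single libraries gave 0 to 8 at 2 weeks, and pool KIUC035 alone 4. As a percentage of nuclear counts, mRNA shares differed by 13.2 (F/F against F/+ with cGas), -11.66 (without), 11.37 (cGas loss in F/+) and -13.48 (in F/F). Some single values changed sign. In pool KIUC033 alone, 2-week values were 0.24 for mt-Rnr1, 0.26 for mt-Rnr2 and 0.54 for mt-Nd6, and 2 weeks minus 1 week was 0.34 for mt-Nd6. In KIUC035 alone that difference was -0.23 for mt-Rnr1, -0.54 for mt-Rnr2 and -0.36 for mt-Co1, and without the pool term -0.0014 for mt-Rnr2. Without cGas, mt-Rnr2 was at 0.063 without TMM and mt-Rnr1 at -0.32 with only the groups compared. Leaving out single libraries, mt-Nd6 ran from -0.91 to 0.52 at 1 week, -0.39 to 0.17 at 11 days and -1.19 to 0.087 at 2 weeks. For 2 weeks minus 1 week the ranges were -0.10 to 0.68 (mt-Rnr1), -0.41 to 0.46 (mt-Rnr2), -0.20 to 0.25 (mt-Co1) and -1.34 to 0.75 (mt-Nd6). Without cGas they were -0.15 to 0.38, -0.19 to 0.20, -0.32 to 0.068 and -0.65 to 0.022 in the same order. The difference of F/F effects ran from -0.21 to 0.44 for mt-Nd6, cGas loss in F/+ from -0.33 to 0.052 for mt-Rnr1 and in F/F from -0.035 to 0.31 for mt-Co1. The causes were not tested. At 11 days leaving out 1 F/F library leaves a lone sample, assumed to vary like the other groups. For QuantSeq, a fit on only the groups compared was not run for the difference of F/F effects, which uses all groups.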
